A study of Homo sapiens with 10 samples.

Results

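Named antisense transcripts are long RNAs read from the strand opposite a known gene and named after it, with a suffix such as -AS1. On the gene arrays used here, 1020 of the 48144 gene-level probe sets tested carried a symbol of that form, and they stood for 985 antisense symbols. They were taken by symbol alone, whatever their values, though earlier results of these data were known when this set was chosen. The gene before the suffix is called the sense gene. The samples were UT-SCC-12a cells, an established human cutaneous squamous cell carcinoma line. In 5 samples the cells had been stably transduced with shMIMIC lentivirus that expresses miR-23b-3p, and in the 5 control samples with a construct for a scrambled RNA. All samples thus carried a lentiviral construct, and each condition is a transduced line; the labels do not say whether the 5 samples of a group were separate cultures, so the p-values below measure the spread between these samples, which may be technical. The comparison asks which RNAs differ when miR-23b is overexpressed. The values are log2 signals as the authors deposited them, and every difference is overexpressing minus control on that scale.

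MicroRNAs pair through a short seed at their 5 prime end with sites in target RNAs and lower the targets' stability or translation. Antisense transcripts can start at the same promoter region as their sense gene and run the other way, can run into its end, or can lie inside it. Some antisense transcripts are known to act on the sense gene in cis, by transcription over it, by recruiting chromatin regulators or by pairing with its RNA, and for many no action is known.

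The mature miRNA that was overexpressed and the promoters of 2 antisense and sense pairs are shown, because these head-to-head pairs are described below. The miRNA is shown with its seed, bases 2 to 8, in capitals. The promoters span 250 bases before to 50 bases after a start site, with each CG in capitals. All sequences are from RefSeq, assembly GRCh38.p14.
hsa-miR-23b-3p: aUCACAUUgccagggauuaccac
PDCD4-AS1: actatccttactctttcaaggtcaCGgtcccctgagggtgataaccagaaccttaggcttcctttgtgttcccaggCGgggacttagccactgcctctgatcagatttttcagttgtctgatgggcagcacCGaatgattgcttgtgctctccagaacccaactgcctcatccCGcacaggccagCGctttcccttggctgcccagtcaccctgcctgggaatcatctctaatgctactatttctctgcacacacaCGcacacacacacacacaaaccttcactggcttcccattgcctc
PDCD4: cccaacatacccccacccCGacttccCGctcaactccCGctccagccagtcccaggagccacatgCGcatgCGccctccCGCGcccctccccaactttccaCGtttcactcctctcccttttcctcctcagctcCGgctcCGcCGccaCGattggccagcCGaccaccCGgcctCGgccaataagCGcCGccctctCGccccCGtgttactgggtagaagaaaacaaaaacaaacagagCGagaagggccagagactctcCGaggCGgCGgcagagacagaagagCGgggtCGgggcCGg
RBM26-AS1: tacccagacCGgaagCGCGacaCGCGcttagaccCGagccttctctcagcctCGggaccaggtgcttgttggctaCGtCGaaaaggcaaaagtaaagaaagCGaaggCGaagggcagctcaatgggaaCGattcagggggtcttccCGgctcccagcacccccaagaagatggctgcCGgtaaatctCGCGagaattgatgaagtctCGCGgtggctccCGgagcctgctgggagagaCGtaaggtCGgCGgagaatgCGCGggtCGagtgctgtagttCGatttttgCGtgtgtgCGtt
RBM26: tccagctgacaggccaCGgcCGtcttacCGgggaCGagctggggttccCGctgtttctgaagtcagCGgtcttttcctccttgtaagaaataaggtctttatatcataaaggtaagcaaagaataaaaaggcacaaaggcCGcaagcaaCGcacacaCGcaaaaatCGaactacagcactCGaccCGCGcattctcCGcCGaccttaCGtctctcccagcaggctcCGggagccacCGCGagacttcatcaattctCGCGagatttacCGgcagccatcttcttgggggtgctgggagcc
The window of RBM26-AS1 lies at chr13:79406059-79406358 on the plus strand and that of RBM26 at chr13:79406206-79406505 on the minus strand. The starts are 54 bases apart, the windows share 153 bases, and they hold 28 and 22 CG pairs. The window of PDCD4-AS1 lies at chr10:110870855-110871154 on the minus strand and holds 6 CG pairs, while that of PDCD4 lies at chr10:110871678-110871977 on the plus strand and holds 26. These starts are 1024 bases apart and the windows share 0 bases.

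Part of the antisense transcripts shared a promoter window with their sense gene. How often other genes share a window is not given here. Of the 985 antisense symbols, 729 had at least 1 promoter window in the RefSeq table, and for 635 of these the sense gene had a window on the other strand of the same chromosome. In 184 a window overlapped one of the sense gene on the other strand, and in 279 the nearest starts lay within 1000 bases. Antisense windows that overlapped a sense window were rich in CG. Their median was 31 CG pairs and 69.0% G and C, against 8 CG pairs and 54.3% in the other antisense windows. At least 15 CG pairs were present in 91.5% of the 200 overlapping windows, against 38.2% of the 625 other antisense windows and 48.9% of all 35116 windows in the table. The letters TATAAA, read on either strand, were found in 3.5% of the overlapping windows, 10.9% of the other antisense windows and 11.5% of all windows.

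The arrays' own annotation, in hg19 coordinates, placed nearly all members on the strand opposite their sense gene. Of the 1020 probe sets, 995 had a sense gene with a probe set of its own, the brightest of which stood for the gene, which made pairs with 877 sense genes. In 987 pairs (99.2%) the probe sets lay on opposite strands of the same chromosome, and in 841 their spans overlapped. The commonest arrangement was head-to-head, with starts facing away from each other, in 409 probe sets. The median distance between these starts was 565 bases. A further 358 lay wholly inside the sense gene, 149 met it tail-to-tail, 38 spanned the whole sense gene and 33 lay apart from it. In 6 pairs the spans were on the same strand, in 2 on different sequences of the assembly, and 25 members had no sense probe set. Of the members, 991 are long non-coding RNAs in RefSeq today, and 6 have since been renamed as protein-coding genes, such as NCBP2AS2 and MMP24OS. The differences of these 6 ranged from -0.002 to 0.054.

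Many antisense probe sets gave a signal within the range of the background probe sets. The arrays carry 23 antigenomic background probe sets, designed to match no human sequence, with a mean log2 value of 3.39 over the 10 arrays and a lower median of 2.37. Of the antisense probe sets, 348 (34.1%) had a mean above the antigenomic mean, 885 (86.8%) one above the antigenomic median, and 12 were above the brightest antigenomic probe set, at 6.22. These are rough marks, because background depends on a probe's base composition. Antisense transcripts inside their sense gene were above the antigenomic mean in 87 of 358 cases (24.3%), head-to-head transcripts in 165 of 409 (40.3%) and tail-to-tail transcripts in 61 of 149 (40.9%). Above the antigenomic median the shares were 78.2% inside the sense gene, 94.1% head-to-head and 88.6% tail-to-tail. The labels' protocols do not state if labelling kept the strand. For a pair whose spans overlap, RNA of the sense gene at the antisense probes was not measured apart.

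**Figure D1:**
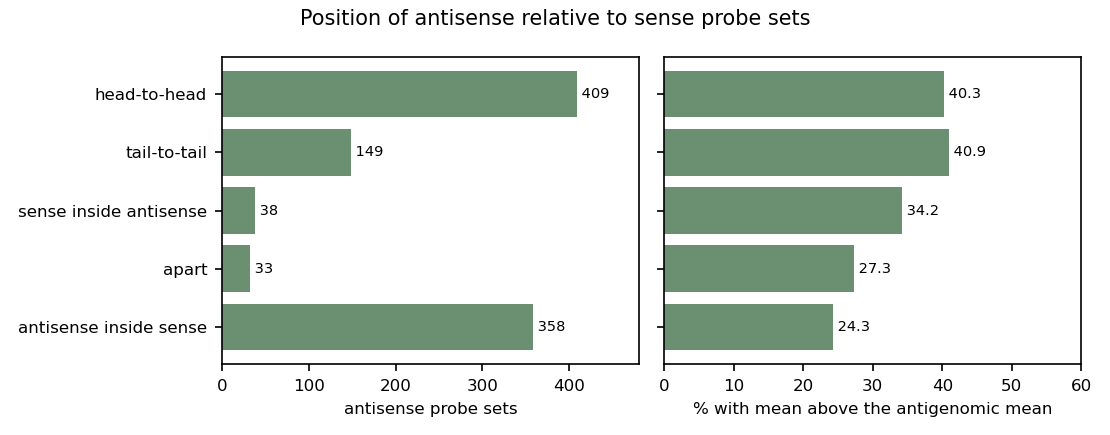
Position of the antisense probe sets relative to the sense probe set. Bars at left count the antisense probe sets in each of the 5 commonest arrangements, and bars at right give the percentage whose mean log2 value over 10 arrays lies above the antigenomic mean; 24.3% of those inside the sense gene did, the lowest of the 5.

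Of 10 genes listed as squamous keratinocyte markers, 7 were above the brightest antigenomic probe set. They were keratin 5 (KRT5, 8.19), TP63 (8.63), CDH1 (10.82), EPCAM (10.17), SFN (10.56), DSG3 (9.85) and ITGA6 (11.04). The keratins KRT14 (3.70), KRT6A (3.72) and KRT17 (3.82) were above the antigenomic mean only. Above that mean were also 1 of 7 fibroblast (COL1A1, 4.46), 2 of 4 endothelial (CDH5, 4.39, and KDR, 4.50), 0 of 6 blood and 2 of 5 melanocyte markers, and 0 of these were above the brightest antigenomic probe set. The summed log2 level of the squamous markers was 79.75 to 80.52 in overexpressing arrays and 80.06 to 81.11 in control arrays. The probe set of the miR-23b hairpin gene, MIR23B, averaged 6.43 ± 0.20 in overexpressing and 6.21 ± 0.22 in control arrays (SD, n = 5 each), and its difference of 0.22 did not pass the test (limma, adjusted p = 0.799); this array does not read the mature miRNA apart. RRAS2, the target named in the study's title, averaged 6.22 ± 0.08 in overexpressing and 6.40 ± 0.06 in control arrays (SD, n = 5 each), with no overlap, and its difference of -0.18 did not pass either (limma, adjusted p = 0.665). Array medians ran from 3.16 to 3.19 in overexpressing and from 3.14 to 3.18 in control arrays. The poly-A spikes, RNAs added during preparation, averaged 5.35 ± 0.09 in overexpressing and 5.46 ± 0.02 in control arrays (exact two-sided permutation test, p = 0.0238), and their part in the results was not tested beyond the alternative fit with them as a covariate. In these bulk samples fewer cells that make an RNA and less of it per cell cannot be told apart.

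No antisense transcript passed the test of the whole array. With limma and Benjamini-Hochberg adjustment over all 48144 probe sets, 0 of 1020 antisense probe sets had an adjusted p under 0.05, where 9 of all probe sets (0.0187%) did, and the smallest adjusted p among the antisense probe sets was 0.252. At an unadjusted p under 0.05 there were 73 of 1020 (7.16%), against 6.63% of all probe sets. Of these 42 were higher in overexpressing cells (4.12%, against 3.67% of all) and 31 were lower (3.04%, against 2.95% of all). These shares are near the background. Among 971 probe sets of intergenic LINC transcripts the unadjusted count was 48 (4.94%). All 5 overexpressing arrays lay on 1 side of all 5 control arrays in 10 antisense probe sets (0.98%), against 1.35% of all probe sets, 6 of them higher (0.588%, against 0.685% of all) and 4 lower (0.392%, against 0.661% of all).

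The differences were small. Over the antisense probe sets they ranged from -0.50 to 0.39, with a median of 0.012, against a median of 0.002 over all probe sets. With arrays centred on their medians the antisense median turned to -0.004. By sign 544 were higher and 464 lower, so 53.3% were higher, against 50.8% of all probe sets. The tilt was larger in brighter probe sets. Of the 80 antisense probe sets with a mean above 5, 51 were higher and 28 lower (63.7% higher, against 51.5% of all 12131 probe sets at that level), with a median difference of 0.054 against 0.004. Of those 80, 9 had an unadjusted p under 0.05 (11.2%, against 8.58% of all at that level). This share did not rise steadily with level. It was 6.67% for means above 4 and up to 5 (8.45% of all) and 9.27% above 3 and up to 4 (7.6% of all). Up to a mean of 3 it was 5.44% (4.75% of all). This split by level was made after the values were seen. Of the 80 with a mean above 5, the number higher ran from 47 to 58 when single arrays were left out.

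**Figure D2:**
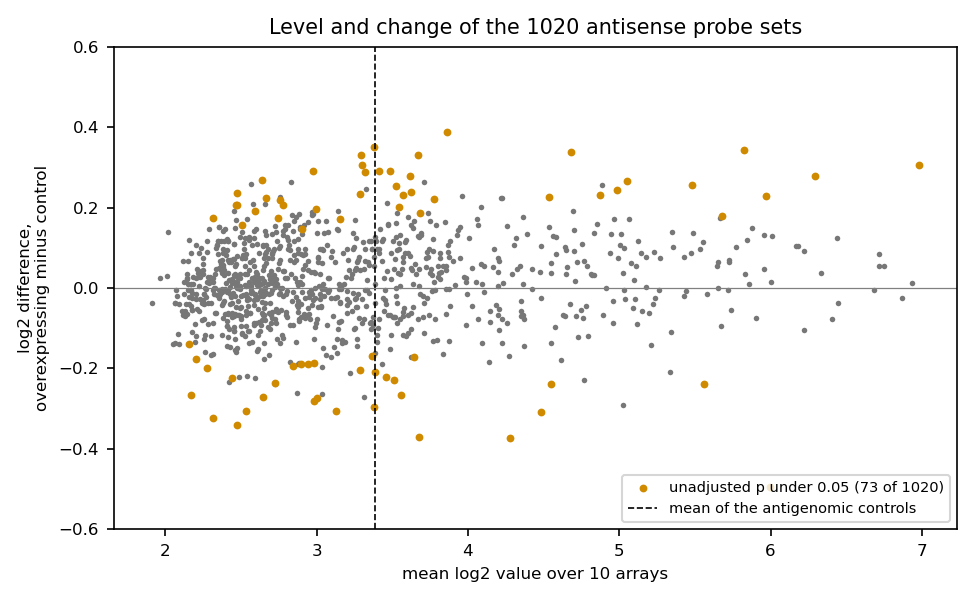
Difference against level for the 1020 antisense probe sets. The horizontal axis is the mean log2 value over 10 arrays, the vertical axis the log2 difference, overexpressing minus control, and each point is a probe set; the 73 with an unadjusted p under 0.05 are marked and lie on both sides of 0, with 42 higher and 31 lower.

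PCNA-AS1 and EFCAB14-AS1 stood furthest out among the lower antisense transcripts. PCNA-AS1 lies inside PCNA, the sliding clamp of DNA replication, at chr20:5100232-5100615 on the plus strand (hg19). In RefSeq its start lies 372 bases from the nearest start of PCNA. Its log2 values were 5.98, 5.45, 5.40, 5.98 and 5.92 in overexpressing arrays, against 6.18, 6.24, 6.37, 6.18 and 6.24 in control arrays. The groups did not overlap, and overexpressing arrays 2 and 3 were the lowest of all. The difference was -0.50 (SE 0.12), the most negative of the 1020, and did not pass the test (limma, adjusted p = 0.416). Leaving out single arrays gave -0.554 to -0.41. PCNA itself had 9.89, 9.82, 9.89, 9.80 and 9.86 in overexpressing arrays and 9.98, 9.91, 9.84, 9.93 and 10.02 in control arrays. These groups overlap, and the difference was -0.08 (SE 0.06). The antisense minus sense value was 0.41 lower in overexpressing arrays than in controls, with no overlap between the groups.

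EFCAB14-AS1 runs tail-to-tail into EFCAB14, a gene for an EF-hand protein, at chr1:47139708-47157770 on the plus strand (hg19). It had 2.23, 2.05, 2.07, 2.20 and 2.23 in overexpressing arrays, against 2.45, 2.42, 2.48, 2.58 and 2.47 in control arrays. The groups did not overlap, but every value was below the antigenomic mean. The difference was -0.32 (SE 0.06), with the smallest p of all antisense probe sets (limma, adjusted p = 0.252). The groups of EFCAB14 overlapped, at 9.69 ± 0.04 in overexpressing and 9.68 ± 0.05 in control arrays (SD, n = 5 each). FOCAD-AS1, inside the focadhesin gene, and NTM-AS1, inside the gene of the adhesion protein neurotrimin, also had a probe set whose groups did not overlap. FOCAD-AS1 averaged 2.61 ± 0.05 in overexpressing and 2.85 ± 0.10 in control arrays (SD, n = 5 each), with every value below the antigenomic mean. That probe set of NTM-AS1 averaged 3.18 ± 0.04 in overexpressing and 3.39 ± 0.12 in control arrays (SD, n = 5 each). A brighter NTM-AS1 probe set over the same span had overlapping groups, 4.59 to 5.27 in overexpressing and 4.74 to 5.58 in control arrays, with a difference of -0.29. Neither passed, and their sense genes differed by -0.03 and 0.04.

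Of the higher antisense transcripts, RAET1E-AS1, PLS3-AS1 and RBM26-AS1 had groups that did not overlap. RAET1E-AS1 spans RAET1E, a ligand of the natural killer receptor NKG2D, and had 3.15, 3.14, 3.03, 3.25 and 3.03 in overexpressing arrays, against 2.87, 2.77, 2.79, 2.99 and 2.72 in control arrays. Its difference was 0.29 (SE 0.07; limma, adjusted p = 0.422), all of it below the antigenomic mean. PLS3-AS1, head-to-head with the gene of the actin-bundling protein plastin 3, had 3.48, 3.43, 3.44, 3.77 and 3.65 in overexpressing arrays, against 3.01, 3.07, 3.36, 3.16 and 3.42 in control arrays. The lowest overexpressing array was 0.01 above the highest control array. The difference was 0.35 (SE 0.10; limma, adjusted p = 0.515), while PLS3 differed by 0.04 (SE 0.06).

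RBM26-AS1 starts beside RBM26, an RNA-binding protein gene, in the shared window shown above. It had 4.99, 5.33, 5.04, 4.99 and 5.20 in overexpressing arrays, against 4.91, 4.73, 4.86, 4.85 and 4.98 in control arrays, so the groups were again 0.01 apart. The difference was 0.24 (SE 0.08; limma, adjusted p = 0.644). RBM26, from the other side of that window, had 8.01, 8.23, 8.20, 8.18 and 8.10 in overexpressing arrays and 8.22, 8.36, 7.99, 8.24 and 8.27 in control arrays, a difference of -0.07 (SE 0.08) with overlapping groups. The remaining 3 of the 10 that did not overlap, named here after their values were seen, were TMEM92-AS1 (0.33), VWA8-AS1 (0.15) and ITPK1-AS1 (0.14). Every value of VWA8-AS1 and ITPK1-AS1 was below the antigenomic mean.

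The other antisense transcripts with the smallest p had overlapping groups. DLGAP1-AS2, inside the gene of a scaffold protein of the postsynaptic density, had 5.75, 5.97, 5.97, 6.18 and 6.11 in overexpressing arrays, against 5.33, 5.81, 5.71, 5.69 and 5.72 in control arrays, a difference of 0.34 (SE 0.10; limma, adjusted p = 0.545). Its neighbour DLGAP1-AS1, named after its values were seen, averaged 7.13 ± 0.15 in overexpressing and 6.83 ± 0.22 in control arrays (SD, n = 5 each), a difference of 0.31. DLGAP1-AS3 and DLGAP1-AS5 had differences of -0.12 and 0.04, and DLGAP1 one of -0.15. MIF-AS1, which spans the gene of the cytokine MIF, differed by 0.22, and SLC2A1-AS1 (now SLC2A1-DT), head-to-head with the glucose transporter gene, by 0.28. NIFK-AS1, whose sense gene encodes a partner of the proliferation antigen Ki-67, differed by 0.27, ERICH6-AS1 by 0.29, FAM53B-AS1 by 0.20 and the brighter probe set of ALOX12-AS1 by 0.23. On the lower side, MBNL1-AS1, inside the gene of a splicing factor, differed by -0.27, INTS6-AS1, head-to-head with an Integrator subunit gene, by -0.31, ZFAT-AS1 by -0.34 and WWC2-AS1 by -0.31. TMEM72-AS1 and the dimmer probe set of DAB1-AS1 each differed by -0.27, while the brighter DAB1-AS1 probe set differed by 0.17. Every value of ZFAT-AS1, WWC2-AS1, TMEM72-AS1 and the dimmer DAB1-AS1 probe set was below the antigenomic mean. RBM12B-AS1 differed by -0.23 and TMEM161B-AS1 (now TMEM161B-DT) by -0.21. None of these passed; for those among the 12 higher and 12 lower antisense probe sets with the smallest p, limma's adjusted p lay between 0.466 and 0.68. NRSN2-AS1 (-0.37) and LGALS8-AS1 (-0.37) were among the 3 most negative, with wide spreads and p-values further from the threshold (limma, adjusted p = 0.743 and 0.75).

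**Figure D3:**
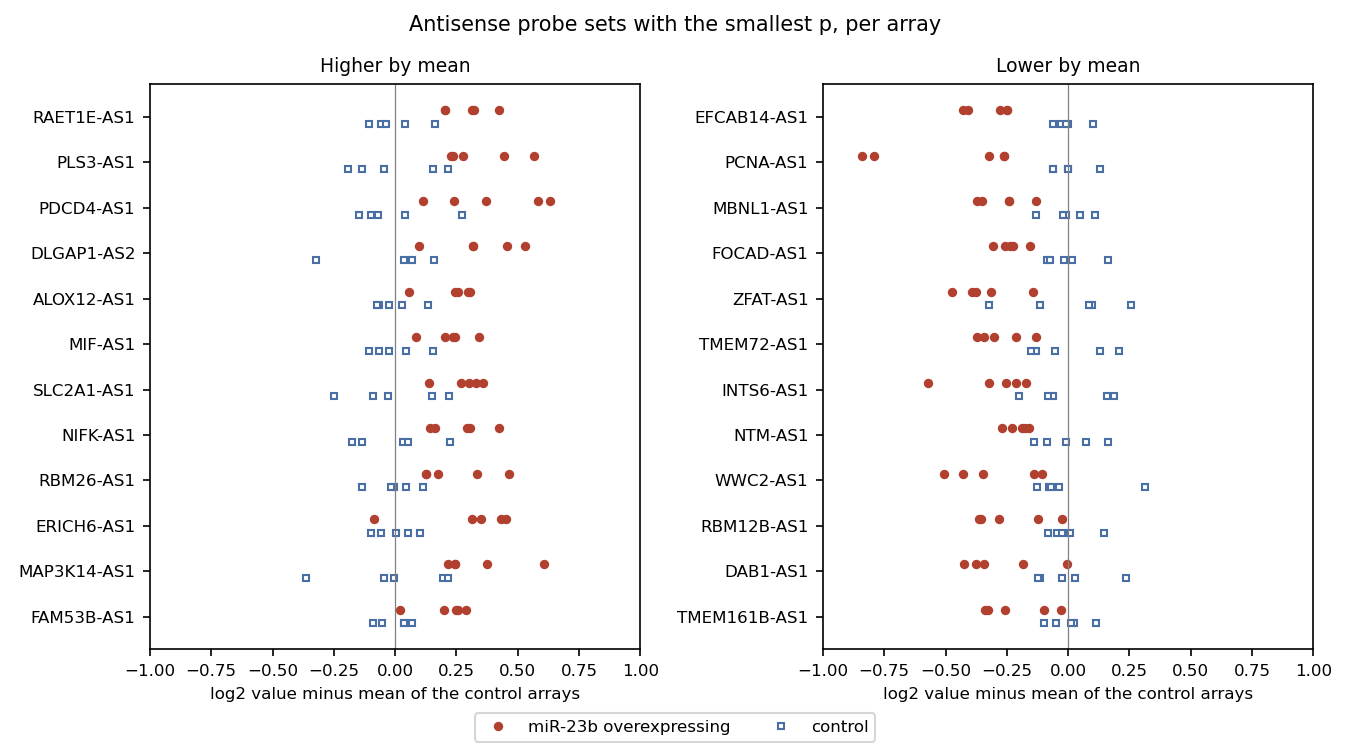
Values per array of the 12 higher and the 12 lower antisense probe sets with the smallest p. The horizontal axis is the log2 value minus the mean of the 5 control arrays; filled circles are the 5 overexpressing arrays and open squares the 5 control arrays of each probe set, and only RAET1E-AS1, PLS3-AS1, RBM26-AS1, EFCAB14-AS1, PCNA-AS1, FOCAD-AS1 and NTM-AS1 have groups that do not overlap.

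None of the sense genes passed the test either. Of 877, 62 had an unadjusted p under 0.05 (7.07%, against 6.63% of all probe sets). Of these 33 were higher (3.76%, against 3.67% of all) and 29 were lower (3.31%, against 2.95% of all). The one with the smallest p was MAP3K14, the kinase NIK of the non-canonical NF-κB pathway (limma, adjusted p = 0.163). The sense genes' groups did not overlap in 22 cases (2.51%, against 1.35% of all probe sets). Of these 12 were higher (1.37%, against 0.685% of all) and 10 were lower (1.14%, against 0.661% of all). The sense genes had a median log2 level of 4.75, against 3.15 over all probe sets. Within pairs, antisense and sense differences had the same sign in 508 of 995 pairs (51.1%) and opposite signs in 468, and 19 had a difference of 0 in a member. Pearson's r between antisense and sense differences was 0.03 across the 995 pairs, which share the same arrays. Among the 284 pairs with both probe sets above the antigenomic mean, 144 had the same sign (50.7%). The share with the same sign was 54.0% in head-to-head pairs, 52.3% in tail-to-tail pairs and 46.4% where the antisense lay inside the sense gene. Between arrays of a group, the deviations of antisense and sense from their group means had a median r of 0.007 over 10 arrays. Pairs with a shared promoter window, 188 in number, had a median of -0.001 and the same sign in 53.2%.

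**Figure D4:**
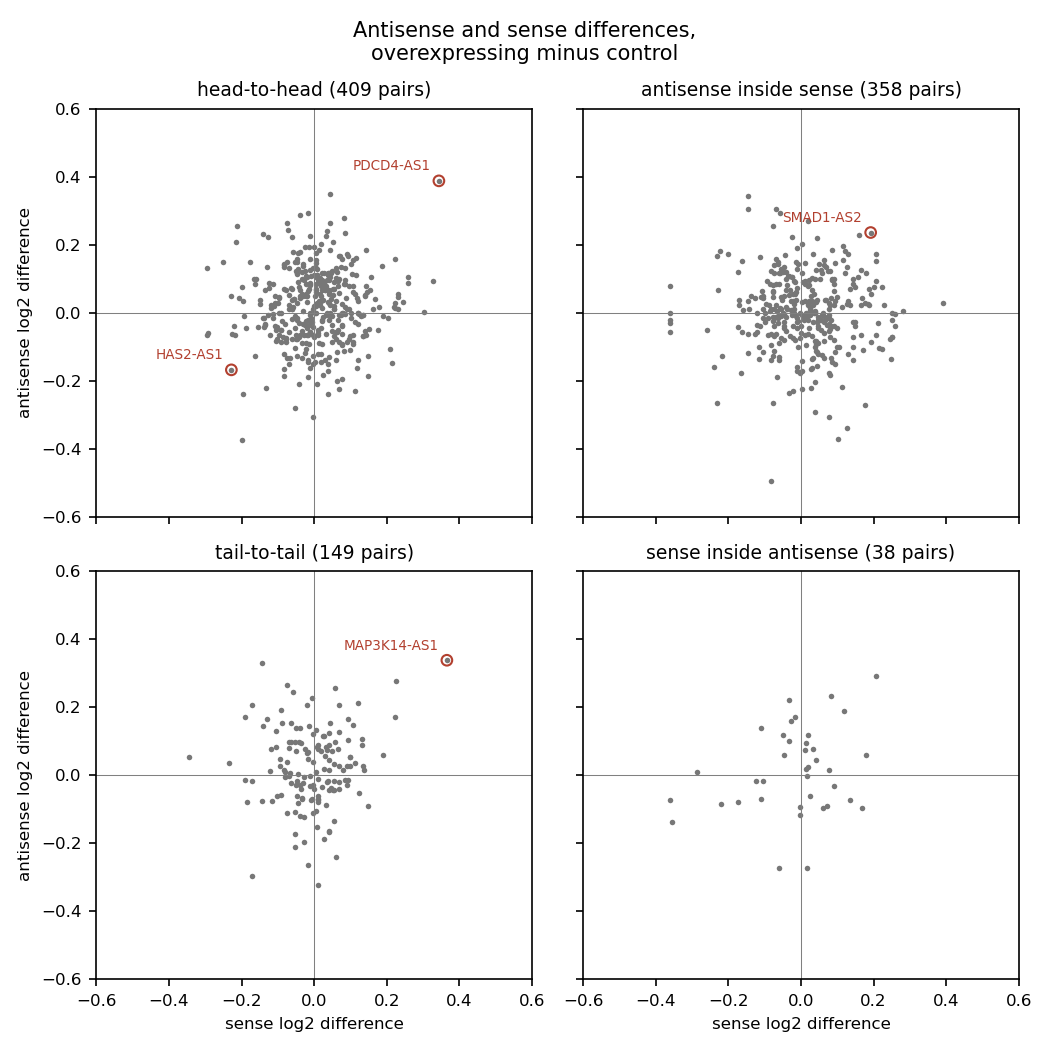
Antisense difference (vertical) against sense difference (horizontal), log2, overexpressing minus control, for the 4 arrangements in which spans overlap or starts face away. Each point is a pair; the 4 ringed pairs have an unadjusted p under 0.05 for both members and all lie in the quadrants of equal sign, while r over all 995 pairs is 0.03.

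In 4 pairs both members had an unadjusted p under 0.05, and in all 4 both differed in the same direction. They are 5.48% of the 73 pairs with such an antisense probe set, against 7.07% of the 877 sense genes and 6.63% of all probe sets at that p. PDCD4 is an inhibitor of the translation initiation helicase eIF4A. Its antisense transcript runs away from it head-to-head, with spans that overlap by 439 bases in the hg19 annotation of the array and the RefSeq starts shown above. PDCD4-AS1 had 4.25, 4.04, 4.30, 3.78 and 3.91 in overexpressing arrays, against 3.60, 3.71, 3.52, 3.94 and 3.57 in control arrays. Its difference of 0.39 (SE 0.11; limma, adjusted p = 0.521) was the largest positive one among the 1020, with 1 control array inside the range of the overexpressing arrays. PDCD4 had 7.46, 7.81, 7.41, 7.69 and 7.55 in overexpressing arrays, against 7.22, 7.25, 7.21, 7.29 and 7.23 in control arrays, with no overlap and a difference of 0.34 (SE 0.08; limma, adjusted p = 0.344). Within the groups, the deviations of PDCD4-AS1 and PDCD4 had an r of -0.40 over 10 arrays.

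MAP3K14-AS1 runs tail-to-tail into MAP3K14 at chr17:43325303-43345997 on the plus strand (hg19). It had 4.76, 4.76, 4.89, 4.73 and 5.12 in overexpressing arrays, against 4.71, 4.73, 4.47, 4.15 and 4.51 in control arrays. The groups touched at 4.73, and the difference was 0.34 (SE 0.12; limma, adjusted p = 0.65). MAP3K14 had 5.68, 5.76, 5.71, 5.67 and 5.67 in overexpressing arrays, against 5.46, 5.24, 5.40, 5.33 and 5.23 in control arrays, with no overlap and a difference of 0.37 (SE 0.06). The other 2 pairs, named after their values were seen, were SMAD1-AS2 (0.24) with SMAD1 (0.19), a transducer of BMP signals, and HAS2-AS1 (-0.17) with HAS2 (-0.23), a hyaluronan synthase. Every value of SMAD1-AS2 was below the antigenomic mean.

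**Figure D5:**
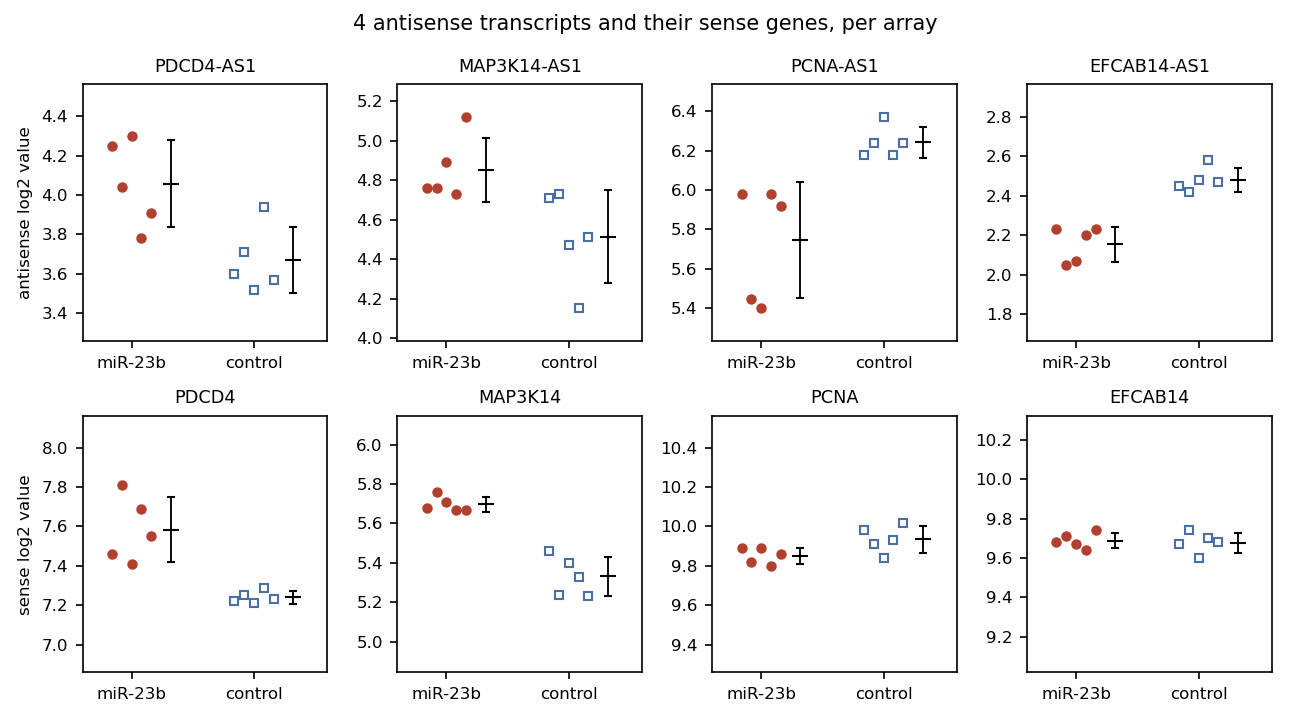
Log2 values per array of 4 antisense transcripts (upper row) and their sense genes (lower row), overexpressing arrays as filled circles and control arrays as open squares, with the mean and SD beside each group of 5. All panels span 1.3 log2 units; PDCD4 and MAP3K14 stand higher by mean, as do their antisense transcripts, while PCNA (-0.08) and EFCAB14 (0.01) have overlapping groups and their antisense transcripts do not.

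Sense genes with the smallest p had antisense transcripts with small differences in most cases, many of them measured below the antigenomic mean. KCNMA1, the pore subunit of the BK potassium channel, averaged 4.70 ± 0.09 in overexpressing and 5.06 ± 0.15 in control arrays (SD, n = 5 each), with no overlap, whereas its 5 antisense probe sets, of KCNMA1-AS1, KCNMA1-AS2 and KCNMA1-AS3, had differences from -0.06 to 0.08. ENOX1 averaged 3.17 ± 0.14 in overexpressing and 2.78 ± 0.13 in control arrays (SD, n = 5 each), again with no overlap, and ENOX1-AS2 differed by 0.03. NAV2 (neuron navigator 2) differed by 0.25, and NAV2-AS2, NAV2-AS4 and NAV2-AS5 by -0.07, -0.07 and 0.0. SCEL, which encodes the cornified envelope precursor sciellin, averaged 7.62 ± 0.13 in overexpressing and 7.34 ± 0.06 in control arrays (SD, n = 5 each), and SCEL-AS1 differed by 0.004. Every value of SCEL-AS1, ENOX1-AS2, KCNMA1-AS2, KCNMA1-AS3, NAV2-AS4, NAV2-AS5 and the sense gene ENOX1, and of the KCNMA1-AS1 probe sets at -0.03 and -0.02, was below the antigenomic mean. None of these sense genes passed (limma, adjusted p from 0.334 to 0.446).

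The antisense minus sense value had groups that did not overlap in 13 of 995 pairs (1.31%). Among single probe sets the share was 1.35% of all, 0.98% of antisense and 2.51% of sense probe sets. The share for differences between unrelated probe sets is not given here. Besides PCNA, EFCAB14, FOCAD and KCNMA1-AS2, they included DLGAP1-AS2 (0.49), KIF9-AS1 (0.38), whose sense gene is a kinesin, and MCM3AP-AS1 (-0.30), whose sense gene acts in mRNA export. Every value of KIF9-AS1 was below the antigenomic mean. KIF9 averaged 3.08 in overexpressing and 3.25 in control arrays, also below that mean. DLGAP1 was near it, at 3.32 in overexpressing and 3.46 in control arrays. Each of the 13 pairs had an exact two-sided permutation p of 0.00794 before any adjustment over pairs, the smallest that 5 against 5 arrays allow.

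Grouped by the role of the sense gene, 0 antisense probe sets passed in any group after adjustment. The groups were drawn up with earlier results of these data known. Of 71 antisense probe sets of developmental transcription factors, 6 were higher at an unadjusted p under 0.05 (8.45%, against 3.67% of all probe sets). At that p 0 were lower (against 2.95% of all). In either direction the share of all probe sets was 6.63%. The median difference of the 71 was -0.006. Among them GATA6-AS1 averaged 3.46 ± 0.25 in overexpressing and 3.18 ± 0.07 in control arrays, GATA2-AS1 5.77 ± 0.09 in overexpressing and 5.59 ± 0.10 in control arrays, and FOXN3-AS2 2.77 ± 0.19 in overexpressing and 2.50 ± 0.12 in control arrays (SD, n = 5 each). Every value of FOXN3-AS2 was below the antigenomic mean. The factors GATA6, GATA2 and FOXN3 themselves differed by -0.04, -0.04 and 0.02. Of 38 antisense probe sets of zinc finger genes, 2 were higher at that p (5.26%, against 3.67% of all probe sets) and 0 lower (against 2.95% of all). In either direction the share of all was 6.63%. The 2 were ZNF337-AS1 (0.23) and ZNF385D-AS2 (0.17). Every value of ZNF385D-AS2 and of ZNF385D was below the antigenomic mean. ZBTB46-AS1, next by p in that list, differed by -0.27 with overlapping groups.

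Of 32 antisense probe sets of genes of the cell cycle, DNA repair and chromatin, 1 was higher (KIF9-AS1) and 2 were lower (PCNA-AS1 and MCM3AP-AS1) at an unadjusted p under 0.05, which is 9.38%, against 6.63% of all probe sets. Of 80 in adhesion, cytoskeleton and matrix, 1 was higher (ITGB2-AS1, 0.31, whose sense gene is the leukocyte integrin beta 2) and 1 was lower (NTM-AS1), or 2.5%. Of 106 in signalling and immunity 6 were higher and 4 lower (9.43%), among them DLGAP1-AS2, WWC2-AS1 and MAP3K14-AS1. Of 128 in RNA processing, translation, protein turnover, transport and metabolism 9 were higher and 3 lower (9.38%), among them PDCD4-AS1, SLC2A1-AS1 and RBM26-AS1. The median differences of these 4 groups lay between 0.002 and 0.03.

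Several probe sets of the same antisense transcript did not always point the same way. There were 33 symbols with more than 1 probe set, 68 probe sets in all, and in 17 of them the differences had different signs, in 0 with an unadjusted p under 0.05 on both sides. ALOX12-AS1 is an example: the probe set that spans ALOX12 had 4.99 ± 0.10 in overexpressing and 4.75 ± 0.09 in control arrays, while a dimmer one that lies apart had 2.74 ± 0.11 in overexpressing and 3.0 ± 0.34 in control arrays (SD, n = 5 each). In 2 symbols, C2-AS1 and CCDC144NL-AS1, 4 probe sets fell into pairs with identical values on every array. Chromosome 3 held 147 of the members (14.4%), against 5.32% of all probe sets with a symbol, and chromosome 13 held 68 (6.67%, against 2.3%).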

How the data were processed

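Total RNA of 10 samples was hybridized to Affymetrix HuGene 2.0 ST arrays. The deposited log2 values, given to 2 decimals, come from RMA and Transcriptome Analysis Console, per the submitters' processing notes. Background correction by RMA, quantile normalization and summary by median polish were done by the authors, per the file headers. The authors' deposited table holds a signed fold score per probe set (B over A, with minus the inverse for a fall), which equalled overexpressing over control means of linear values for 53617 of 53617 probe sets (relative tolerance 0.001), which set log base and direction. Its symbols, strands and hg19 coordinates were used. Its 10 array columns with names that match no sample label were not used. A further 5473 control or reporter probe sets were not tested.

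All 48144 remaining probe sets were fitted with limma 3.58.1 (lmFit, eBayes; R 4.3.3) on 10 arrays without covariates, with Benjamini-Hochberg adjustment and a threshold of 0.05. Standard errors (SE) are limma's moderated ones. A sense gene was read by its brightest probe set. Positions came from hg19 spans; RefSeq windows (GRCh38.p14) were used only with each other. The fit was tested on simulated data, with differences put into probe sets that were not among the dimmest. It recovered 60% of differences of 0.5 and 97% of differences of 1.0, with 7 false calls among 48144 probe sets. Recovery in dim probe sets was not measured, and 533 antisense probe sets had a mean level up to 3. The 2 shares therefore cannot be read as the recovery for all antisense probe sets. They also hold only for the number of differences put into the simulated data. The antisense differences ran from -0.50 to 0.39, so real differences of such sizes can miss the threshold. Replicate numbers were not used as pairs in this fit. Same-numbered deviations had r from -0.1007 to 0.0428, which cannot show whether those samples were prepared together. No arrays were duplicates (at most 2.16% identical values), and the number of arrays limits the precision.

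Chosen to be named were the 12 higher and 12 lower antisense probe sets with the smallest p and their sense genes. So were the antisense probe sets of the 6 sense genes with the smallest p, 3 per list, 2 per arrangement, and the 3 largest and 3 smallest differences. Not every sense gene is given above. Chosen but not described above were SLC25A25-AS1 (0.33), C1QTNF9B-AS1 (-0.31), KANSL1-AS1 (0.17), KRT73-AS1 (0.15) and SRGAP2-AS1 (0.14), and none of these passed. Symbols with several probe sets are given as counts. Members and lists were chosen with earlier results of these data known. Other settings tried were array weights, a block for the replicate number, a poly-A covariate, a variance trend, a robust prior, no dim probe sets (mean up to 2.475), centring on medians, quantile normalization once more, only probe sets of cross-hybridization type 1, a threshold of 0.01, the sense probe set with the largest overlap, and each array left out in turn.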

Additional observations from a re-analysis of the deposited data

Results flagged for a closer look

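In 13 of 194 groups of 5 arrays tested, 1 array stood far from the other 4 by Dixon's criterion, which chance gives in about 1 group in 20. Among antisense transcripts in overexpressing arrays these were ALOX12-AS1 at 4.81, ERICH6-AS1 at 3.18, GATA2-AS1 at 5.93 and KRT73-AS1 at 3.15. In control arrays they were DLGAP1-AS2 at 5.33, WWC2-AS1 at 3.0 and SCEL-AS1 at 2.67. Among sense genes, NAV2 at 6.64, KANSL1 at 7.81, KRT73 at 2.55 and FAM53B at 5.52 stood out in overexpressing arrays, and ENOX1 at 2.55 and INTS6 at 6.84 in control arrays. Without overexpressing array 5, the outlying one, the difference of ERICH6-AS1 was 0.39, against 0.29 with it, and its adjusted p from limma was 0.191.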

How the results depend on the processing

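The count of antisense probe sets past an adjusted p of 0.05 was 0 under each alternative run. Replicate numbers were also used as a replicate block, and this gave 66 antisense and 58 sense probe sets at an unadjusted p under 0.05, against 73 and 62; it changed no call. At an unadjusted threshold of 0.01 there were 15 antisense and 14 sense probe sets. The shares of all probe sets under the block and at that threshold are not given here. The counts therefore cannot be read as particular to these probe sets. Median centring moved the median antisense difference to -0.004. Leaving out single arrays gave 13 to 24 antisense probe sets whose groups do not overlap, against 10 with all arrays, since fewer arrays separate more easily; the largest number, 24, came without overexpressing array 3. With single arrays left out, the count at an unadjusted p under 0.05 was 62 to 72 and the pairs with the same sign were 488 to 519. Shares of all probe sets with single arrays left out are not given here. The share of 1.35% without overlap holds for all arrays only. Over 59 named probe sets, 1083 of 1109 alternative values kept their direction and their side of the threshold, and the smallest adjusted p was 0.0825, for MAP3K14 with a variance trend.

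The 26 others changed sign and belong to antisense transcripts with differences near 0. With the poly-A covariate ASMTL-AS1 had -0.141, KCNMA1-AS1 (its probe set at -0.03) 0.069 and SCEL-AS1 -0.179. SCEL-AS1 had -0.012 under median centring, and KCNMA1-AS2 0.014 with array weights. Leaving out single arrays gave -0.06 to 0.116 for SCEL-AS1, -0.066 to 0.061 for KCNMA1-AS2, -0.024 to 0.102 for ENOX1-AS2 and -0.01 to 0.162 for ASMTL-AS1. The 3 probe sets of KCNMA1-AS1 ran from -0.024 to 0.128, from -0.11 to 0.014 and from -0.064 to 0.018. The causes were not tested. Of the antisense probe sets 34.1% lie above the antigenomic mean and 86.8% above the antigenomic median, and low signal limits what can be seen in the dimmer ones.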
